A study of Mus musculus with 2 samples.

Results

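The Trim genes encode tripartite motif proteins, a family of ubiquitin ligases built from a RING finger, B-box zinc fingers and a coiled coil, followed by a C-terminal domain that differs between subfamilies. The RING finger passes ubiquitin from a conjugating enzyme to the protein that the C-terminal part binds. The family is best known for antiviral defence, where several members act on viral RNA sensors or capsids and are themselves induced by interferon, and other members work in chromatin, muscle, neurons and early embryos. The members were the protein-coding genes of GENCODE mouse release M21 whose symbol is Trim followed by a digit. Of 69 such genes 68 were protein coding, Trim61 was not in both count tables, and Trim28 and Trim71 were left out by the rule, which gave 65 members of 43629 genes counted. The rule itself reads names and not levels. The family proteins with other names, Pml, Mid1, Mid2 and Mefv, are given apart.

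Poly-A RNA was sequenced from mouse embryonic stem (ES) cells in which Drosha, the nuclear ribonuclease that starts microRNA processing, had been knocked out with paired CRISPR/Cas9 cuts. Both libraries, called A and B after the ends of their titles, came from untreated knockout cells of the 129/Ola background at passage 7, grown in serum with LIF and taken with Trizol, and they form 1 group. The titles carry the cell numbers 1 and 2 under a shared source name, the cell type is entered for A only, and whether the cells are 1 clone is not stated, so a difference between A and B may be technical or between lines. No library of cells with Drosha was analysed here, so no level below can be set against a wild type.

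Library A held 29264632 counts and library B 42322129, and the Trim genes took 0.177% of them in A and 0.178% in B. Levels are given as CPM, counts scaled to the library size after normalisation by TMM (the trimmed mean of M-values), or as TPM wherever genes are compared, because TPM also divides by exon length. Where a gene has 0 reads, its level could still reach 0.102 CPM in A or 0.0711 CPM in B, which 3 reads would give; such limits cover counting error only. All 10 ES cell markers had 1 CPM or more in both libraries, with Dppa5a, Pou5f1 and Zfp42 the highest in TPM, and they summed to 7260 CPM in A and 7332 CPM in B. Of the markers of other cell types, 8 of 10 neuron, 6 of 12 fibroblast, 5 of 10 blood and 4 of 10 muscle genes also reached 1 CPM in both libraries. Hbb-bs and Hba-a1 (red cells), Dcx (young neurons) and Twist2 (fibroblasts) had 0 reads in both.

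Of the 65 Trim genes, 37 (56.9%) had 1 CPM or more in both A and B. The same was true of 57.8% of the 21551 protein-coding genes, so the family's share lay near the background. The median Trim gene had 2.59 ± 0.191 CPM, against 3.89 ± 0.0161 CPM for all protein-coding genes (SD of the library medians, n = 2). Per length, the median was 1.72 TPM in A and 1.63 TPM in B, against 2.71 and 2.64 TPM for all protein-coding genes. The Rnf genes, RING finger proteins without the tripartite arrangement in most cases, stood higher in the same libraries: 68 of 83 (81.9%) had 1 CPM or more, with a median of 13.3 TPM. In bulk RNA a low level in every cell and a high level in few cells cannot be told apart.

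**Figure D1:**
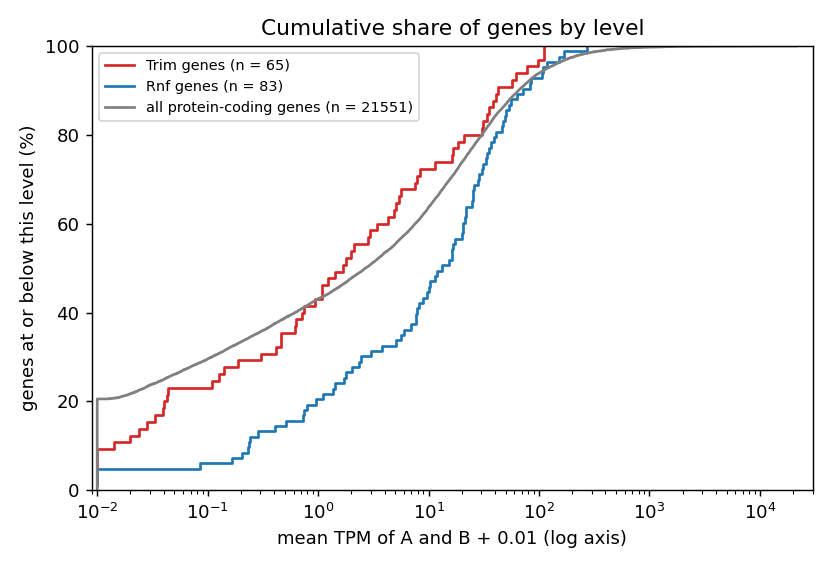
Share of genes (%) at or below each level (mean TPM of A and B plus 0.01, log axis) for the 65 Trim genes, the 83 Rnf genes and all 21551 protein-coding genes. The Rnf curve lies right of the others over most of its course, with a median of 13.3 TPM, while the Trim curve stays left of the other curves, or on the protein-coding one, above about 2 TPM and ends near 112 TPM.

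The family ran over a wide scale. The Trim genes summed to 928 TPM in A and 930.0 TPM in B, and the 5 highest, Trim25, Trim6, Trim59, Trim13 and Trim27, made up 49.0% of that sum in A and 49.8% in B. The 20 highest held 93.3% in A and 93.8% in B. Mean levels reached 10 TPM in 18 genes. These ranks use the union of exons and depend on that length. Trim24 has 8521 bases by exon union and 4042 in its longest transcript, while Trim13 has 1650 and 1619. In mean CPM Trim24 had 182 and Trim13 48.1. At the other end, 12 members had 1 to 9 reads in both libraries together, namely Trim43a, Trim10, Trim38, Trim31, Trim69, Trim30a, Trim5, Trim15, Trim75, Trim43b, Trim9 and Trim30b. No read was counted in A or B for 6 members (9.23%), Trim55, Trim58, Trim12a, Trim30c, Trim43c and Trim42, against 20.5% of all protein-coding genes. Close to the line of 1 CPM, 10 genes had a mean of 0.5 to 2 CPM: Trim54, Trim40, Trim29, Trim34a, Trim62, Trim34b, Trim72, Trim14, Trim17 and Trim65.

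**Figure D2:**
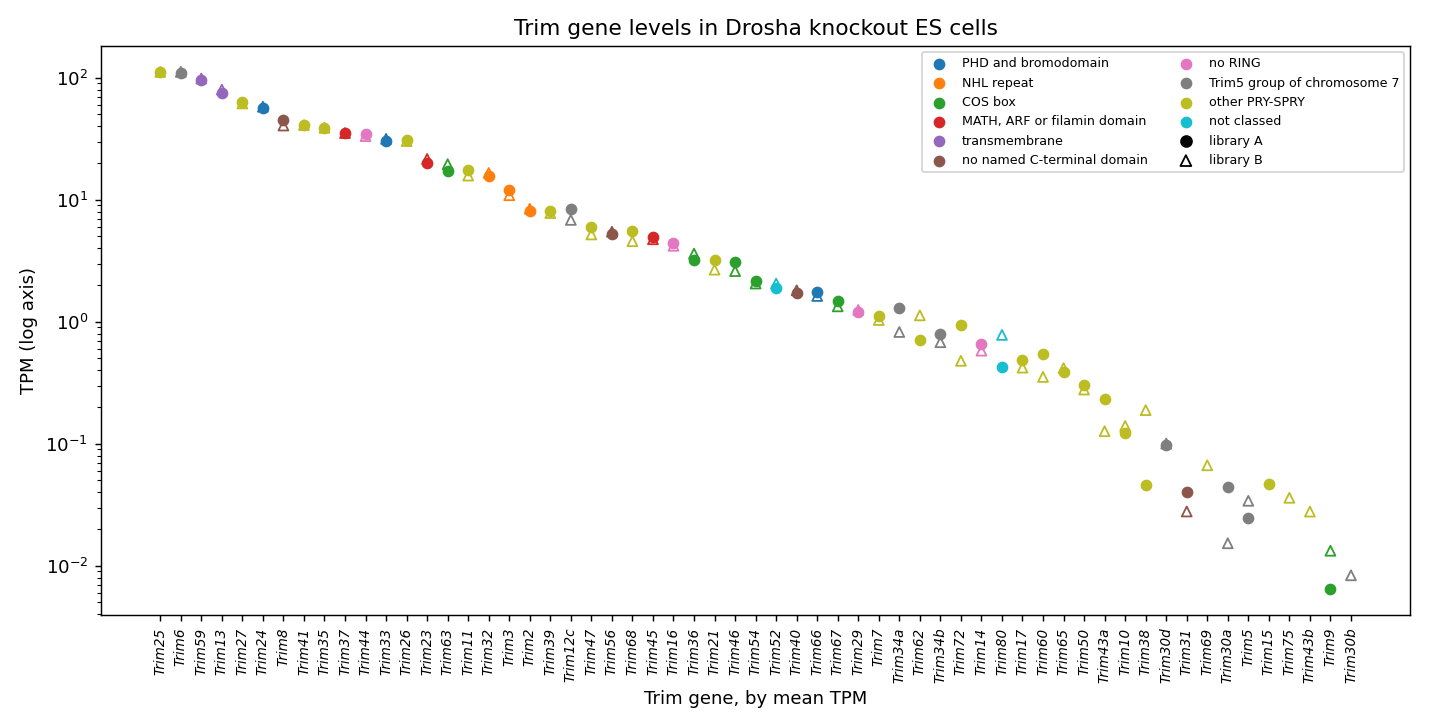
TPM (log axis) of the 59 Trim genes with at least 1 read, ordered by mean TPM and coloured by the domain class of the protein. Filled circles are library A and open triangles library B; a library with 0 reads has no point, and the marks of A and B lie close together down to about 2 TPM.

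Trim25 and Trim6 were the most abundant members in TPM over exon unions and could not be ranked against each other by it. Their exon unions have 5754 and 4894 bases, and their longest transcripts 5590 and 3827. The order of these genes, and their place above Trim24 (4042 bases in its longest transcript), therefore depend on the length used. In mean CPM, without a length, Trim25 had 241 and Trim6 202. Trim25 (chr11:88999376-89020293, + strand, GRCm38) had 112 TPM in both A and B, from 7034 reads in A and 10221 in B. It encodes the ligase that ubiquitinates the viral RNA sensor RIG-I, and in mouse ES cells it has been described as a cofactor of Lin28a in the tailing of let-7 precursors. Trim6 (chr7:104218793-104235152, + strand) had 109 TPM in A and 112 TPM in B, from 5805 and 8700 reads. Trim6 has been described in mouse ES cells as a ligase that binds Myc, and in human cells as a maker of free ubiquitin chains in interferon signalling. Lin28a itself stood at 170 TPM in A and 173 TPM in B.

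The ligases with a PRY-SPRY domain, the C-terminal fold that recognises the target in most antiviral members, were uneven. Outside the chromosome 7 group around Trim5, 26 members were classed by this domain, Trim25 included. Members classed by a microtubule-binding COS box or by the lack of a RING finger are not counted here, whatever their C-terminal domain. Of the 26, 12 had 1 CPM or more in both libraries, and the 26 together made up 35.2% of the family's summed TPM. Trim27, a repressor partner that also acts in endosome sorting, had 62.7 TPM in A and 61.5 TPM in B. Trim26, next to the major histocompatibility genes, had 31.1 TPM in A and 30.2 TPM in B. Per length, Trim41 (41.2 TPM in A and 40.9 TPM in B) and Trim35 (38.6 and 38.8 TPM) lay above Trim26; both were picked out after their values were seen. Trim21, the cytosolic antibody receptor, had 3.23 TPM in A and 2.67 TPM in B. Trim58 and Trim10, known from the red cell lineage, had no read and 8 reads in all, and the blood marker list had 5 of 10 genes at 1 CPM or more, with a summed 13.1 CPM in A and 12.7 CPM in B.

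Both members anchored in the endoplasmic reticulum membrane by a transmembrane segment ranked among the 4 highest in TPM over exon unions. Trim59 had 95.8 TPM in A and 98.6 TPM in B, and Trim13, which acts in the degradation of misfolded membrane proteins, had 75.4 TPM in A and 79.95 TPM in B. Of the 50-base windows of Trim13's longest transcript, 14.5% also occur in another gene, Gm9359, so part of Trim13's count is uncertain. This pair of genes made up 18.8% of the family's summed TPM.

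All 3 chromatin readers with a PHD finger and a bromodomain were counted well above 1 CPM. Trim24, a nuclear receptor cofactor and ligase for p53, had 56.1 TPM in A and 57.9 TPM in B. Trim33, a partner of Smad proteins in Nodal signalling, had 30.5 TPM in A and 31.5 TPM in B. The related Trim66 was far lower, at 1.74 TPM in A and 1.63 TPM in B.

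The 3 members with NHL repeats, a propeller fold that can bind RNA or protein, also all passed 1 CPM. Trim32, a ligase for muscle filament proteins that in mouse neural progenitors binds Argonaute, had 15.8 TPM in A and 16.6 TPM in B. Trim3, a brain-enriched ligase, had 12.1 TPM in A and 10.9 TPM in B. Trim2, which turns over neurofilament light chain in neurons, had 8.15 TPM in A and 8.43 TPM in B. It had 1758 reads in A and 2650 in B over a summed exon length of 19751 bases, while its longest transcript has 7428. Without a length Trim2 was the highest of the 3, at 59.9 CPM in A and 62.8 CPM in B. Their order in TPM therefore depends on the length used.

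Each of the 3 members with a MATH, ARF or filamin domain passed 1 CPM. Trim37, a histone ligase and centriole regulator, had 35.1 TPM in A and 35.2 TPM in B. Trim23, whose C-terminal part is a small GTPase of the ARF kind, had 20.1 TPM in A and 21.6 TPM in B, and Trim45, with a filamin repeat, had 4.99 TPM in A and 4.74 TPM in B.

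Among members without a named C-terminal domain, Trim8, a ligase in cytokine signalling, had 44.9 TPM in A and 40.6 TPM in B. Trim56, which acts on the DNA sensing pathway, had 5.25 TPM in A and 5.46 TPM in B, and Trim40 had 1.72 TPM in A and 1.81 TPM in B. Of the members that lack a RING finger, Trim44, which carries a ubiquitin protease-like zinc finger, led with 34.6 TPM in A and 33.2 TPM in B. Trim16, a ligase described in autophagy of damaged lysosomes, had 4.41 TPM in A and 4.19 TPM in B, and Trim29, known from stratified epithelia, had 1.21 TPM in A and 1.25 TPM in B. Neither Trim52 (1.87 TPM in A and 2.05 TPM in B) nor Trim80 (0.426 and 0.780 TPM) was placed in a class.

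The microtubule-binding members with a COS box, many of them muscle or neuron proteins, were mostly low, and 5 of 8 passed 1 CPM. Trim63, the muscle atrophy ligase MuRF1, stood out at 17.2 TPM in A and 19.6 TPM in B, from 533 and 885 reads. Its relative Trim54 had 2.17 TPM in A and 2.06 TPM in B, and Trim55, the remaining MuRF gene, had 0 reads. Of 10 muscle genes, Ttn, Myh6, Actn2 and Tnni3 reached 1 CPM in both libraries, while the myogenic factor Myod1 had 2 reads in A and 0 in B and Myf5 had 2 and 1. The list summed to 55.6 CPM in A and 53.0 CPM in B, and its part in the Trim63 level was not tested. Trim36 had 3.21 TPM in A and 3.62 TPM in B, the neuronal ligase Trim67 had 1.47 and 1.34 TPM, and the netrin-pathway ligase Trim9 had 1 read in A and 3 in B. Of 10 neuron markers 8 reached 1 CPM, with Stmn2 the highest at 211 TPM in A and 213 TPM in B.

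Where Trim genes lie side by side, most were under 1 CPM. Grouping members within 100 kb of each other placed 23 genes in 6 clusters. Of the 23, 8 (34.8%) had 1 CPM or more in both libraries, against 29 of 42 members (69.0%) with no such neighbour. The cluster on chromosome 7 gave 2 of 10 and that on chromosome 17 gave 2 of 5. Both of Trim41 and Trim7 passed, 1 of Trim17 and Trim11, 1 of Trim47 and Trim65, and 0 of Trim75 and Trim60. The largest cluster, on chr7:104218793-104507849, spans 289.057 kb and holds 10 genes of the kind that includes Trim5, the capsid-binding restriction factor of primates. Trim6, at its edge, accounted for nearly all of the cluster's level: 109 of 119 TPM in A and 112 of 120.2 TPM in B. Trim12c followed with 8.35 TPM in A and 6.84 TPM in B. Trim34a had 1.31 TPM in A and 0.824 TPM in B, and Trim34b had 0.792 and 0.679 TPM.

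The other 6 genes of the cluster were barely counted. Trim5 had 1 read in A and 2 in B, Trim30a, a mouse inhibitor of inflammatory signalling, had 2 and 1, and Trim30d had 4 and 6. Trim30b had 0 reads in A and 1 in B, and Trim12a and Trim30c had 0 in both. Near-identical copies make some counts of the cluster uncertain. Of the 50-base windows of each gene's longest transcript, 61.9% of Trim34a, 59.0% of Trim34b, 38.4% of Trim5 and 34.4% of Trim12c also occur in other genes. The share was smaller for Trim30d (8.29%), Trim30a (6.53%), Trim12a (4.59%), Trim30b (1.11%) and Trim30c (0.66%). For Trim6 it was 0%. In the cluster of 5 genes on chr17:36837134-36910214, Trim26 and Trim40 passed 1 CPM, while Trim10, Trim15 and Trim31 had 8, 1 and 2 reads in both libraries together.

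**Figure D3:**
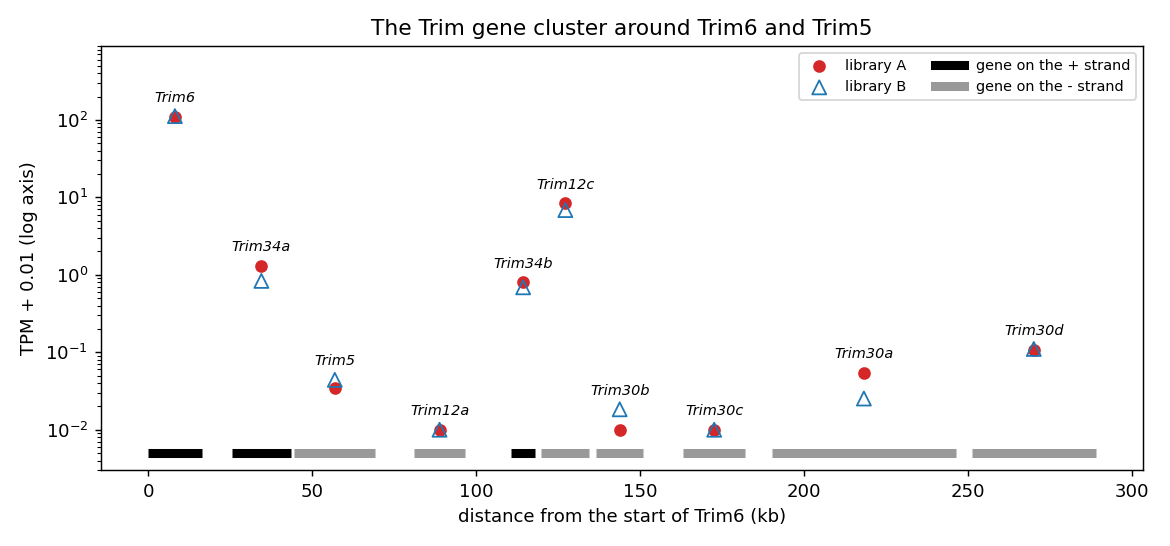
TPM plus 0.01 (log axis) of the 10 genes of the chromosome 7 cluster in library A (filled circles) and library B (open triangles), placed at the middle of each gene by distance in kb from the start of Trim6; bars at the bottom mark each gene's span and strand. Trim6, at the left edge, lies at 109 TPM in A and 112 TPM in B, Trim12c near 8 TPM, and Trim12a and Trim30c at 0 TPM, drawn at 0.01.

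The promoters of the family differed in their CpG content. The CpG ratio, observed over expected CG pairs in the 250 bases before the RefSeq start (GRCm38.p6), could be computed for the 50 members that matched the table by symbol. For a gene with several starts the ratio is the mean over its windows. The ratio had a median of 0.510 in the 29 members with 1 CPM or more in both libraries, against 0.141 in the 21 below. All protein-coding genes in the table gave 0.722 and 0.215, so the members' split is a pattern shared with the genome at large. Across the 50 members the Spearman correlation of CpG ratio with mean TPM was 0.614, a description over genes of which several are close copies. Trim37, Trim6 and Trim5 show the range, from a CpG-rich promoter through an intermediate one to a promoter without a CG; each is written along its gene's strand, with CG pairs and, in Trim5, a match to the interferon response letters in capitals.
Trim37, chr11:87126825-87127074, + strand: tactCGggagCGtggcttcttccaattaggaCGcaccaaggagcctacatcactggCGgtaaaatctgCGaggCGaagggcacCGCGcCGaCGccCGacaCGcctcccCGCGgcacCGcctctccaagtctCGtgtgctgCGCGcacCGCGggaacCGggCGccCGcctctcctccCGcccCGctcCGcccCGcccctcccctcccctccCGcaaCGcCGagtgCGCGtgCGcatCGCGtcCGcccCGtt
Trim6, chr7:104218545-104218794, + strand: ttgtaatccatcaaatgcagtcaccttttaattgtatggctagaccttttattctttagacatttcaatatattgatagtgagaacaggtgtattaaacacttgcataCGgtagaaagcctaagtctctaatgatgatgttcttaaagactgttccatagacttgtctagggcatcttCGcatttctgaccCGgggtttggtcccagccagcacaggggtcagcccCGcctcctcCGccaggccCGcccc
Trim5, chr7:104288107-104288356, - strand: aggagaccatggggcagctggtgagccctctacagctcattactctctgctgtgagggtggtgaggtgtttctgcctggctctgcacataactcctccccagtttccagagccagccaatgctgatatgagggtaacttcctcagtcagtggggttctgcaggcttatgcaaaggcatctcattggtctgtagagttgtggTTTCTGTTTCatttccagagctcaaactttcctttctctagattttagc

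Trim37 holds 37 CG pairs in this window (ratio 1.21), Trim6 has 6 (0.467) and Trim5 has 0. The letters searched were those at the core of the element bound by interferon-activated factors, GAAA, any 2 bases and GAAA again, or on the other strand TTTC, any 2 bases and TTTC. They occurred in 5 of 50 members (10%) and in 3.52% of 16317 protein-coding genes, with windows of the same length. A gene was counted where any of its windows held a match. Of those 5 genes Trim5, Trim30a, Trim30d and Trim12c belong to the chromosome 7 cluster, and Trim26 is the remaining one. Trim30a, Trim5 and Trim30d had under 1 CPM in both libraries, and Trim12c and Trim26 had more. A match is a run of letters, not a shown binding site.

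**Figure D4:**
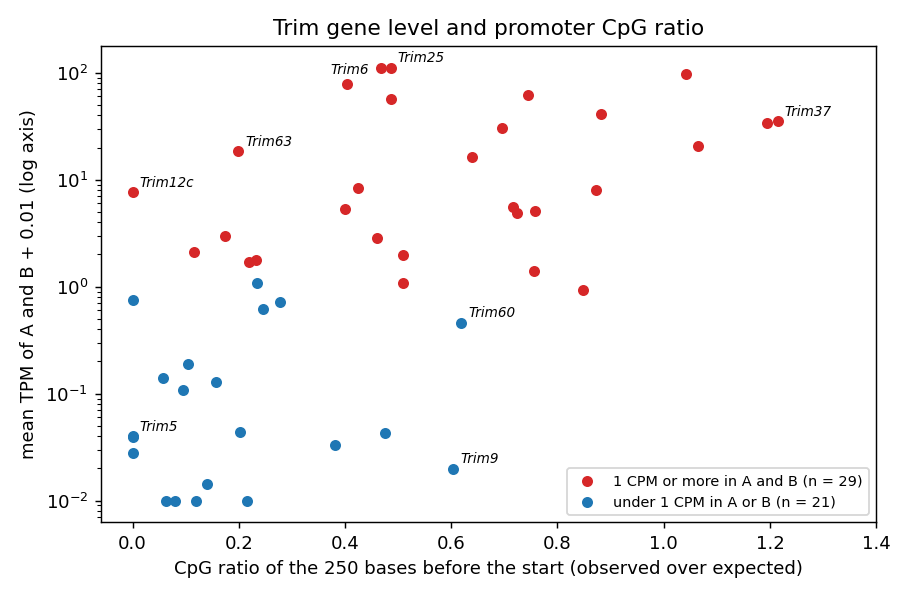
Mean TPM of A and B plus 0.01 (log axis) against the promoter CpG ratio for the 50 Trim genes with a matched promoter, split into the 29 with 1 CPM or more in both libraries and the 21 below. No gene under 1 CPM has a ratio above 0.62 (Trim60), whereas Trim12c has 7.59 TPM at a ratio of 0.

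Interferon signalling genes give the setting of these promoters. Of 16 such genes 10 had 1 CPM or more in both libraries, and the highest per length were Oas1a (32.1 TPM in A and 31.96 TPM in B), which interferon induces, the kinase Jak1 (27.8 and 26.4 TPM) and the factor Irf1 (25.1 and 24.1 TPM). Of other genes that interferon induces, Isg15 had 0 reads in A and 1 in B, Irf7 had 2 and 2, and Usp18 had 4 and 1. Of the 16 genes 12 had enough reads to be tested, and none was called between A and B.

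The cells lack Drosha, so the seed matches of 3 microRNA families in the Trim 3′ UTRs were counted too. A microRNA guides Argonaute to messages that pair with its seed, bases 2 to 8, and such pairing lowers the message or its translation. The let-7 family rises as cells differentiate, and the miR-294 and miR-17 families are abundant in ES cells. Their mature RefSeq sequences are given with the seed in capitals.
let-7a-5p: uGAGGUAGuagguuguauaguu
miR-294-3p: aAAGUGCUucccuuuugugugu
miR-17-5p: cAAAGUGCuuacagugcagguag

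The seed match of let-7, CTACCTC, was present in the 3′ UTR of 7 of 64 Trim genes (10.9%), against 9.07% of 20673 protein-coding genes. For miR-294 (AGCACTT) the share was 15.6%, against 14.8%, and for miR-17 (GCACTTT) 9.38%, against 11.9%; the sites of these 2 families overlap in their letters. The family's shares thus lay near those of all genes. Within it, Trim6 stood apart with 6 let-7 matches in 2220 bases, a number reached or passed by 3 other genes among the 20673, Nr6a1, Mcf2l and Nudt12. The first 5 matches start at bases 541, 586, 631, 676 and 721 of the 3′ UTR, each 45 bases after the one before, and the sixth starts at base 1023. The first, second and sixth are shown with the seed match in capitals, to make visible that the flanks of the spaced matches repeat and those of the sixth do not.
Trim6 match 1: gattatagatCTACCTCacagtgcctg
Trim6 match 2: gattatagctCTACCTCacagcacctg
Trim6 match 6: tataaacaaaCTACCTCtaagtttgca

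Trim67 followed with 3 let-7 matches, and Trim25, Trim41, Trim16, Trim60 and Trim65 had 1 each. The miR-294 match was most frequent in Trim66, with 3. A seed match is not a shown target, and without cells that have Drosha the level of Trim6 (109 TPM in A and 112 TPM in B) cannot be read for or against its use.

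Between the libraries, no Trim gene was called different. Each of the 18198 genes with at least 10 reads was tested with an exact binomial test, two-sided, in which the share of a gene's reads found in A was set against the share that the scaled library sizes give. Calls needed a Benjamini-Hochberg adjusted p under 0.05, and the test weighs a difference against counting error only. Of 47 Trim genes tested 0 were called, while 2.29% of all genes tested were (0.989% higher in A and 1.3% lower in A, and 0.0879% by at least 2-fold). The exact test of edgeR was run with a coefficient of variation set to 0.1, far above the 2.25% estimated from A and B, and called 0 of them and 1 gene in all (0.0055%). No Trim gene was called either with total counts (2.32% of all genes), DESeq2 size factors (2.34%), a minimum of 1 read (1.45%) or 50 reads (2.97%), or the GC trend removed (0.798%). At an unadjusted p under 0.05, 10 Trim genes (21.3%) passed, against 12.4% of all genes tested. Of these, Trim8, Trim12c and Trim72 were higher in A, and Trim6, Trim13, Trim24, Trim33, Trim23, Trim63 and Trim62 were lower in A.

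Trim8 had the smallest adjusted p, with 62.0 CPM in A and 56.7 CPM in B (log2 ratio 0.13, adjusted p = 0.113 by the exact binomial test). With the GC trend removed its log2 ratio was 0.05 (adjusted p = 0.880, same exact test). Trim63 had 18.2 CPM in A and 20.96 CPM in B (log2 ratio -0.21, adjusted p = 0.164, same exact test). Trim6 differed little, with a log2 ratio of -0.06 (adjusted p = 0.237, same exact test) at 197.9 CPM in A and 206 CPM in B, and of -0.03 with the GC trend removed. The widest ratios belonged to genes with few reads: Trim72, a membrane repair protein of muscle, had 23 reads in A and 17 in B (log2 ratio 0.95), and Trim80 had 9 and 24 (log2 ratio -0.84). Over all 47 the median log2 ratio was 0.02, against 0.00 for all genes tested, 25 genes were higher and 22 lower in A, and 41 of 47 differed by less than 1.2-fold, as did 79.6% of all genes tested.

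Some cell type markers were called between the libraries, where 2.29% of all genes tested were. Of 12 fibroblast genes 10 were tested, and 4 were called higher in A. They were Col1a2 (log2 ratio 1.67), Col3a1 (2.24), Dcn (1.60) and Postn (1.93). Of all genes tested 0.989% were called higher in A, and 0.0879% were called with at least a 2-fold difference in either direction. Dcn had 51 reads in A and 24 in B, and Col3a1 had 47 and 14. By edgeR's exact test Col3a1 was called (adjusted p = 0.0354) and the other 3 were not. The whole list summed to 89.0 CPM in A and 84.8 CPM in B, with Twist2 at 0. Thy1, which was not called, gave 42.9 CPM of this in A and 43.7 CPM in B, so the sum says little about the 4 genes. Of the 10 ES cell markers, Utf1 was called higher in A (log2 ratio 0.22, or 0.14 with the GC trend removed), and Dppa5a (-0.07) and Tdgf1 (-0.05) lower in A; Tdgf1 lost its call with the GC trend removed (adjusted p = 0.247, exact binomial test). The part of these genes in the Trim ratios was not tested.

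**Figure D5:**
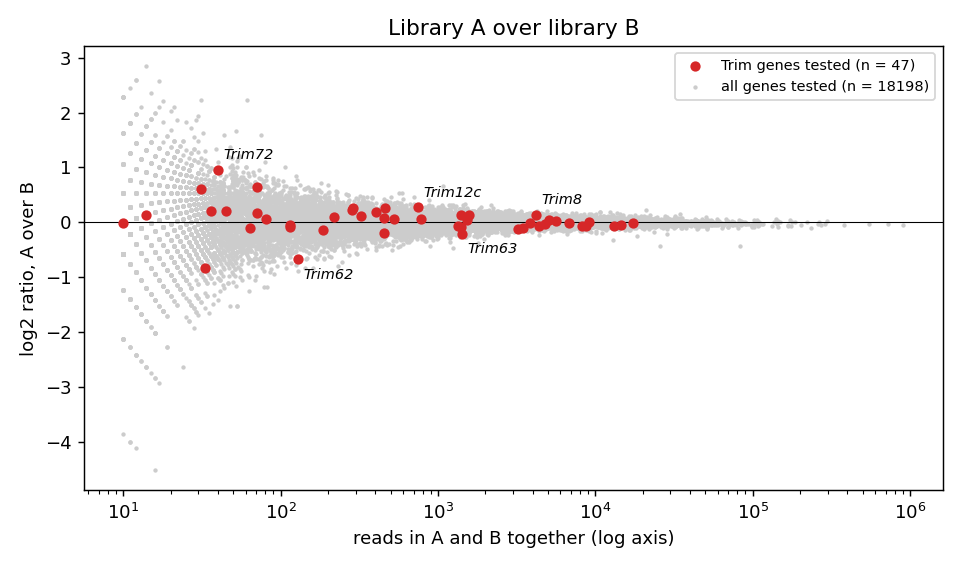
Log2 ratio of A over B against the reads of both libraries (log axis) for the 47 Trim genes tested (dark points) over all 18198 genes tested (grey). The Trim genes lie inside the grey cloud, between -0.84 (Trim80) and 0.95 (Trim72, 40 reads in all).

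The family proteins named otherwise and the ubiquitin machinery complete the picture. Pml, the organiser of nuclear bodies, had 111 TPM in A and 106 TPM in B, and Mid1, a microtubule-bound COS box ligase, had 101 TPM in A and 93.7 TPM in B, both near the level of Trim6. Mid1 was called higher in A, by a log2 ratio of 0.09 (adjusted p = 0.00975, exact binomial test). Mid2 had 2 reads in A and 4 in B, and Mefv, the pyrin gene, had 0. Of 16 genes for ubiquitin, its activating enzyme and the conjugating enzymes that serve RING ligases, 15 had 1 CPM or more in both libraries, and the highest per length were Ubb (669 TPM in A and 631 TPM in B), Uba1 (348 and 334 TPM) and Rps27a (66.7 and 72.2 TPM). Ubb was called higher in A (log2 ratio 0.06). With the GC trend removed Mid1 (log2 ratio 0.05, adjusted p = 0.514, exact binomial test) and Ubb (log2 ratio 0.05, adjusted p = 0.242) were no longer called.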

How the data were processed

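Each library has 1 deposited table of whole-number counts for genes with Ensembl IDs, made by the authors and not normalised, per the file headers. The submitters' processing notes name STAR 2.4.2a, featureCounts 1.4.5-p1 and mm10 without their roles, and the library protocol was reverse-stranded per the labels. Which annotation release, strand setting and handling of multiply matching reads the counting used is not stated in the sources used here. Overlapping and near-identical genes are therefore uncertain. Exon bases are shared with another gene in 20 members, and 13 have at least 10% of the 50-base windows of their longest transcript in other genes.

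Names, positions and exon lengths came from GENCODE M21 (GRCm38, the same build as mm10). The 1081 unmatched IDs held 0.163% of reads. CPM used edgeR 4.0.16 TMM (R 4.3.3) on genes with at least 10 reads, TPM the union of exons, and tests scipy 1.17.1 in Python 3.11.15. Log2 ratios are A over B after adding 0.5 reads. The spread of A and B beyond counting was 2.25% (coefficient of variation). p-values measure only the spread expected from counting, and separate cultures are not stated.

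Promoters and microRNAs came from RefSeq tables (GRCm38.p6), and 3′ UTRs from GENCODE. Protein sequences were planned but not used here. Members, domain classes and lists were chosen with earlier results of these data known, and the clusters, motif, window and seed counts were set after the values were seen. Named genes are the 3 of each class with the highest mean CPM, the chromosome 7 group, and of each list those at 0 and the 3 highest, taken by TPM in the text where the planned rule had CPM; other genes were named after their values were seen. Alternatives were other scalings (DESeq2 1.42.0 size factors), thresholds, filters, lengths, a GC correction and each library alone. A result on a gene of the ubiquitin list is not reported here.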

Additional observations from a re-analysis of the deposited data

How the results depend on the processing

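The number of Trim genes at 1 CPM or more in both libraries was 37 with TMM, total counts or DESeq2 size factors, 36 at 1 TPM, 41 at 0.5 CPM and 28 at 5 CPM, and 37 to 39 with a library left out. The summed TPM, 929 with exon unions, was 935 with the longest transcript, a move of more than the SD of A and B (1.49 TPM). The median CPM of 2.59 lay between 2.45 and 2.72 with a library left out. No Trim gene was called under any scaling, filter or GC correction run, nor by edgeR's exact test, which called 1 gene in all at its assumed spread, and the median log2 ratio lay between -0.01 (at least 1 read) and 0.03 (total counts). Of 166 ratios of named members under the alternatives 0 changed their call and 2 uncalled ones changed sign. Of 165 CPM levels of named members 11 moved by more than 1 SD, all of them with mitochondrial genes left out of the totals. The TPM of single members is not among these levels. The SD is that of A and B, so leaving out a library could not move a level by more than 1 SD. Those levels therefore do not measure stability. No paired analysis was possible because the libraries form 1 group. With 1 library on a side, ratios of members with few reads, such as Trim72, are limited by depth.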
